A study of Mus musculus with 3 samples.

Results

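Neurod1, Neurog1, Insm1, Isl1, Pou4f1, Gata3, Prox1, Nhlh1 and Runx1, 9 transcription factor genes of neuronal differentiation, were followed in cells of the mouse cochlea, the coiled hearing organ of the inner ear. The genes were taken by name from the 27734 genes, joined by Ensembl ID, that all 3 libraries list. Whole cochleae of wild-type C57BL/6J mice were dissociated, and the RNA of single cells was captured in droplets and sequenced with unique molecular identifiers (UMIs), so that each captured RNA molecule counts as 1 UMI. Embryonic day 15 (E15) was covered by 2 libraries and postnatal day 7 (P7) by 1, and the labels name no treatment at either age. How many animals were pooled, and whether the E15 libraries came from separate litters, is not given in the sources used here. The p-values measure only what is left of the spread between the 2 E15 libraries after the difference shared by all cell classes is taken out. That remainder may be technical, and no spread between P7 libraries enters it. With 1 P7 library, age and library cannot be told apart, and the P7 file header names another software version (3.1.0) than the E15 headers (6.1.2).

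Neurons of the spiral ganglion, the cells that carry sound information from hair cells to the brain, leave the otic epithelium as dividing precursors and then mature in steps. Basic helix-loop-helix factors act early in this course, Neurog1 to start the neuronal fate and Neurod1 and Nhlh1 in young neurons, next to the zinc-finger factor Insm1. The homeodomain factors Isl1, Pou4f1 and Prox1, the zinc-finger factor Gata3 and the runt-domain factor Runx1 are known from later identity and subtype choices of sensory neurons, and several of them also act in the sensory epithelium. These roles are background and not results of these libraries.

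Neurons were cells with at least 5 UMIs of Tubb3 and 2 of Stmn2, both neuronal cytoskeleton genes, which gave 76 cells in E15 replicate 1, 98 in E15 replicate 2 and 18 at P7. Median depth was 18915.5 and 15045 UMIs per neuron in the E15 libraries and 43104 at P7. Cells outside this gate were called epithelium (Epcam), glia (Sox10 with a further glial gene) or mesenchyme (Pou3f4 and Col1a2), and no gate used any of the 9 genes. The neuron gate held all 11 neuronal markers in each library, and the geniculate and autonomic markers Phox2a, Prrxl1, Hand2 and Dbh were at 0 in all 3. Of the 9 listed hair cell markers, Pou4f3, Gfi1, Otof and Atoh1 were at 0 in the neurons of every library too. The 9 summed to 1336 and 1367 CPM in the E15 neurons and to 3429 CPM at P7. Most of this was Pvalb, at 1252, 1284 and 3395 CPM, which is also among the neuronal maturity genes listed later. The 4 listed vestibular neuron markers summed to 461 and 503 CPM in the E15 neurons and to 168 CPM at P7. At E15 this came from Phf24 and Irx1, with Tlx3 and Lmx1a at 0. P7 mesenchyme held 275 CPM of the same list. Whether vestibular neurons were among the gated cells was not tested. Depth over all barcodes ranged from 44304364 to 93829443 UMIs per library, and pairs of libraries shared 3 to 6 cell barcodes.

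The P7 neurons stood apart in the RNA of other cells they carried. The 8 glial markers summed to 4960 CPM in them against 74.7 and 362 CPM in the E15 neurons, and all 8 were detected at P7. The 4 bone markers summed to 2333 CPM at P7 and to 0 at E15. Most of that came from 1 cell with 1127 UMIs of Bglap, 724 of Ibsp and none of the neuronal gene Elavl4, and this cell held 1 UMI of Gata3 and none of the other 8 factors. In whole-gate sums, fewer RNA molecules of a gene per cell and fewer cells with that RNA cannot be told apart, so cell counts are given beside the levels.

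Promoter windows from RefSeq (build GRCm38.p6, 250 bases before to 50 after the start) were found for 8 of the 9 genes, and Insm1 had no entry. The windows of 4 are shown because these genes rose and fell together or in opposition across single E15 neurons, as described later: Neurod1, Nhlh1 and Isl1 on one side and Gata3 on the other. Capitals mark E-boxes, the letters CANNTG that helix-loop-helix factors can bind, which read the same way on both strands.
Neurod1 (chr2:79456587-79456886, minus strand): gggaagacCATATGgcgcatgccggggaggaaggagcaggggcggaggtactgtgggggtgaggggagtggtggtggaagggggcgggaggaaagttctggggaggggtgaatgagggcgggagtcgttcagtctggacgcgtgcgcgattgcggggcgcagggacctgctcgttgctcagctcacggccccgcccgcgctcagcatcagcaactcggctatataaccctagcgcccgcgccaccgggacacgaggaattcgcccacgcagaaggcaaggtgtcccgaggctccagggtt
Nhlh1 (chr1:172057547-172057846, minus strand): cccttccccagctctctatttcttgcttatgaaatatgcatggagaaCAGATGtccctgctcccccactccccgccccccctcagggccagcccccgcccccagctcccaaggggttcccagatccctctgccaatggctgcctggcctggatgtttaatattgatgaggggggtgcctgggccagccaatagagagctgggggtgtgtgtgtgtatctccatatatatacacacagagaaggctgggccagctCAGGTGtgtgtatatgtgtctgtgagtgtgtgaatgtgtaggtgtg
Isl1 (chr13:116309639-116309938, minus strand): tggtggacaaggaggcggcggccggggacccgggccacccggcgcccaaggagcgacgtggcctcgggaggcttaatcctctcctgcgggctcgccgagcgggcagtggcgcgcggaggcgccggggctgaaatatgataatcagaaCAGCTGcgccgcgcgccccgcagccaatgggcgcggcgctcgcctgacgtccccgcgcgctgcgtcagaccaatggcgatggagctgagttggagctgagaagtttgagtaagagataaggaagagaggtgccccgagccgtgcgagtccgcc
Gata3 (chr2:9878551-9878850, minus strand): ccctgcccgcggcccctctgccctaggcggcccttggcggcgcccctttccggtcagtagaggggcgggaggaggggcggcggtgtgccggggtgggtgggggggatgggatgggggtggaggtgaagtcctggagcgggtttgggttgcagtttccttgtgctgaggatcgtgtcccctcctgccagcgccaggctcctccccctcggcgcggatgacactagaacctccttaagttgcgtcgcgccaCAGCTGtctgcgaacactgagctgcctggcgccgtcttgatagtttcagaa

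The Neurod1 window held 1 E-box, the Nhlh1 window 2, and the Isl1 and Gata3 windows 1 each. The Gata3 window lies inside the annotated gene (9857078 to 9887953), so it surrounds an internal start and not the outermost one. An E-box stood in 72.3% of all 32851 promoter windows, so its presence here is no feature of these genes. The narrower set CAGATG or CAGCTG, both themselves E-boxes and searched on both strands, stood in 30.6% of all windows and in those of Nhlh1, Isl1, Gata3, Pou4f1 and 1 of 2 windows of Prox1. It was not among the letters of the Neurod1, Neurog1 and Runx1 windows.

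**Figure D1:**
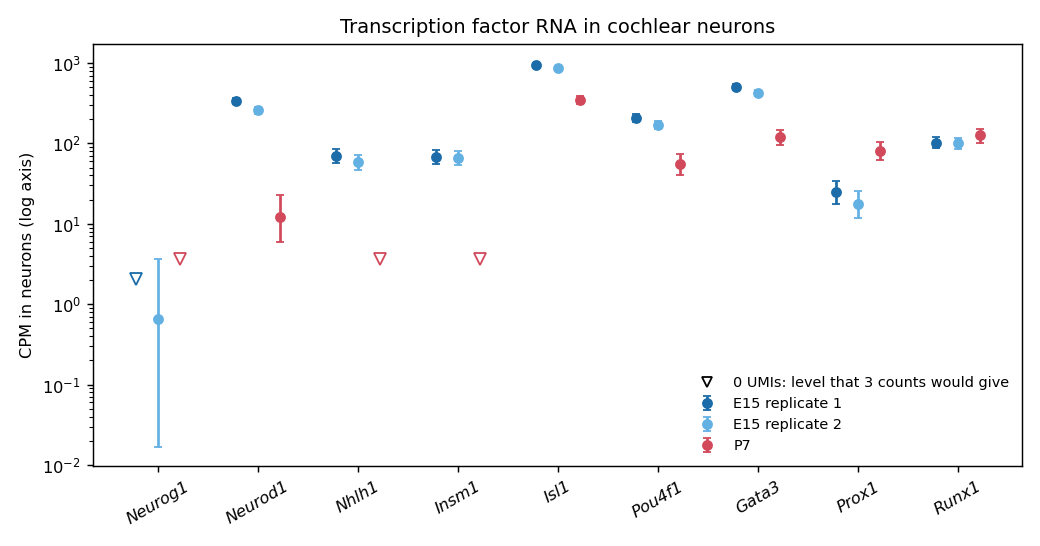
Levels of the 9 genes in neurons as CPM (log axis) in each library; bars are 95% Poisson intervals of the UMI count, which cover counting error only, and open triangles mark 0 UMIs at the level that 3 counts would give. Neurod1, Nhlh1 and Insm1 lie far lower at P7 than in both E15 libraries, Prox1 lies higher, and the Runx1 intervals overlap.

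Between E15 and P7 Nhlh1 and Insm1 fell to 0 UMIs in neurons, Neurod1 fell to a low level, Isl1, Gata3 and Pou4f1 fell and stayed present, and Prox1 rose. Changes were tested by edgeR's quasi-likelihood test over 14657 genes, and calls needed both a fitted fold of 2 or more and a p, adjusted by Benjamini-Hochberg, below 0.05. Of the 8 members tested, 6 were called lower and 1 higher at P7, where 25.7% of all genes were called (11.5% lower and 14.1% higher). Neurog1 had too few counts for the test. The prior degrees of freedom were infinite, so all genes shared 1 trend of the spread that remained between the E15 libraries. This makes the p-values small.

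Neurog1, the earliest of the factors, was already near 0 at E15. It had 0 UMIs in the neurons of E15 replicate 1, 1 UMI in those of E15 replicate 2 and 0 at P7, where a count of 0 allows up to 3.70 CPM. In the cells outside the neuron gate it gave 2 UMIs in 1 cell of E15 replicate 1, and 6 UMIs in mesenchyme and 7 outside all gates at P7.

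Neurod1, which drives the differentiation and survival of young ganglion neurons, stood at 337 and 257 CPM in E15 replicates 1 and 2 (487 and 390 UMIs, in 40 of 76 and 67 of 98 cells). At P7 it stood at 12.3 CPM, from 10 UMIs in 7 of 18 cells. Both E15 libraries lay above the P7 library, and no P7 cell held more than 3 UMIs where single E15 neurons held up to 50 and 33. The fitted log2 change was -4.49 ± 0.32 (SE, edgeR adjusted p = 1.0e-41). DESeq2 gave -4.86 with an adjusted p of 0.15, so this call was lost with that tool.

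Nhlh1, a helix-loop-helix factor of newly made neurons, was at 70.6 and 58.7 CPM in the E15 libraries, with 102 UMIs in 29 cells and 89 UMIs in 36 cells. None was counted in P7 neurons, at least 17.4-fold lower if 3 counts are taken as the floor of the P7 group. Insm1, a zinc-finger repressor of developing neurons and endocrine cells, showed the same course, with 67.8 and 66.6 CPM at E15 (98 UMIs in 44 cells and 101 UMIs in 43 cells) and 0 UMIs at P7. It was at least 18.2-fold lower. Both genes were thus detected in E15 neurons of each library and in none at P7. The P7 neurons were deeper by median, but their summed depth was lower, at 811243 UMIs against 1444862 and 1515881 at E15. The adjusted p from edgeR was 1.9e-10 for Nhlh1 and 1.1e-10 for Insm1.

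The identity factors stayed present at lower levels. Isl1, a LIM-homeodomain factor of sensory and motor neurons, had UMIs in every E15 neuron and stood at 945 and 859 CPM (1365 and 1302 UMIs). P7 neurons held 351 CPM, from 285 UMIs in 16 of 18 cells, below both E15 libraries. The log2 change was -1.27 ± 0.10 (SE, edgeR adjusted p = 1.4e-32). It was -0.90 in neurons without UMIs of Sox10 or Epcam, under the fold of 2 that a call needs. The part of glial RNA in this fall was not tested beyond that.

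Gata3, a zinc-finger factor needed for the survival and wiring of ganglion neurons, had 504 and 427 CPM in the E15 neurons, in 73 of 76 and 95 of 98 cells. P7 neurons held 119.6 CPM from 97 UMIs in 14 cells, and the log2 change was -1.87 ± 0.15 (SE, edgeR adjusted p = 7.3e-36). Pou4f1, a POU-homeodomain factor of sensory neurons, went from 206 and 169.5 CPM (69 and 83 cells) to 55.5 CPM in 8 of 18 cells, a log2 change of -1.67 ± 0.25 (SE, edgeR adjusted p = 2.5e-10). In both genes the E15 libraries lay close together and the P7 library lay well under them.

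Prox1, a homeobox factor also known in supporting cells of the organ of Corti, was the only member called higher. It rose from 24.9 and 17.8 CPM in the E15 neurons (36 UMIs in 21 cells and 27 UMIs in 20 cells) to 81.4 CPM at P7 (66 UMIs in 10 of 18 cells). The log2 change was 2.03 ± 0.32 (SE, edgeR adjusted p = 1.9e-09), and P7 lay above both E15 libraries. P7 glia held 10.3 CPM of Prox1 (41 UMIs in 18 of 408 cells), below the level in P7 neurons. Runx1, a runt-domain factor of sensory neuron subtypes, stood at 102 and 100.3 CPM at E15 and at 126 CPM at P7, where 11 of 18 neurons held 102 UMIs. Its log2 change of 0.40 ± 0.21 did not pass the test (edgeR adjusted p = 0.14). Keeping only neurons with a UMI of Elavl4 (76, 94 and 17 cells), an alternative chosen after seeing the data, kept these 7 calls, with log2 changes of -4.45 for Neurod1, -1.23 for Isl1, -1.85 for Gata3, -1.63 for Pou4f1 and 2.09 for Prox1.

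Detection per cell was also compared with each neuron thinned to 5000 UMIs, since P7 neurons were deeper. After thinning, Neurod1 was seen in 27 of 73 and 48 of 93 E15 neurons and in 2 of 18 P7 neurons. Gata3 was seen in 63 of 73 and 78 of 93 at E15 and in 2 of 18 at P7. Its P7 share of 11.1% became 20.7% with a looser gate, 30.8% with a stricter one and 50% (5 of 10 cells) in neurons without Sox10 or Epcam. Each setting thinned the cells by a new random draw, and another draw over the same 18 P7 neurons gave 3 cells (16.7%). Gate and random draw therefore cannot be told apart in these shares. Isl1 went from 68 of 73 and 83 of 93 to 12 of 18. Prox1 was seen in 10 of 73 and 9 of 93 E15 neurons (13.7% and 9.68%) and in 4 of 18 at P7 (22.2%, exact 95% interval 6.41% to 47.6%), so its rise in level was not resolved in the share of cells. The same held for Runx1, seen in 27.4% and 30.1% of E15 neurons and in 27.8% of P7 neurons. In mesenchyme, thinned in the same way, 1.24% and 1.72% of E15 cells had a UMI of Gata3 and at most 0.465% one of Isl1. At P7 these shares were 1.17% for Gata3 and 0.494% for Isl1. How much free RNA the neurons carried was not measured at either age. Runx1 was seen in 4.27% and 3.79% of E15 mesenchymal cells.

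Further genes of the same steps were followed through lists, which were chosen with earlier results of these data known. Their counts stand beside 11.5% of all genes called lower and 14.1% called higher with age in neurons. Of 29 other neurogenic factors, 23 were tested, and 14 were called lower and none higher. The median log2 change was -2.03, or -1.99 with genes at 0 in a group entered at their bound, against 2.07e-05 over all genes. Sox11, which acts in young neurons, went from 1177 ± 15.6 CPM at E15 (SD, n = 2) to 59.2 CPM at P7. Nhlh2, the close relative of Nhlh1, went from 116 ± 10.6 to 4.93 CPM, and Dcx, a microtubule protein of migrating neurons, from 344 ± 62.8 to 22.2 CPM. Neurod6 and Neurod2, relatives of Neurod1, had 33 and 23 UMIs in E15 replicate 1, 30 and 19 in E15 replicate 2, and 0 at P7, at least 5.75-fold and 3.84-fold lower.

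Of 23 further sensory neuron identity factors, 21 were tested, with a median log2 change of -1.12. Of these, 11 were called lower and 2 higher, where 11.5% and 14.1% of all genes were. Among those that fell were Runx1t1, a corepressor gene (132 ± 3.18 to 9.86 CPM), Zeb2, a zinc-finger homeobox factor (168 ± 5.27 to 37.0 CPM), and Isl2, the relative of Isl1 (87.5 ± 0.38 to 23.4 CPM). Ldb1, whose product binds LIM-homeodomain factors such as Isl1, went from 97.3 ± 4.26 to 28.4 CPM. Among those that rose was Maf, a large Maf factor, from 147 ± 27.4 to 369 CPM, which is named after its values were seen.

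Of 20 neuronal maturity genes, 14 were called higher in neurons and 1, Sncg, was called lower (median log2 change 2.69). Over all genes, 14.1% were called higher and 11.5% lower there. The calls of a rise were not particular to neurons. In epithelium, 13 of these genes were called higher and none lower (median 2.41), where 20.6% of all genes were called higher and 14.8% lower. The difference between age effects was called higher for 5 and lower for 5 (median -0.16), against 8% and 8.69% of all genes. Levels could differ widely: Snap25 went from 0.24 and 1.54 to 6.76 CPM in epithelium, against 1219 CPM in P7 neurons. Pvalb had 1463 UMIs in the 23 P7 epithelial cells with at least 2 UMIs of Pou4f3, and 26 in the other 600. In neurons, Nefh, the heavy neurofilament, went from 33.4 ± 0.66 to 1779 CPM and Slc17a7, the vesicular glutamate transporter, from 6.79 ± 2.14 to 224 CPM. Of 12 tested ganglion subtype genes, 6 were called higher and 2, Calb1 and Etv4, lower (median 1.55). Lypd1 went from 237 and 199.9 to 735 CPM, and Calb2, a calcium-binding protein, from 3 and 0 UMIs to 2524. Of 12 Notch pathway genes, Notch1, Notch2, Hes1, Hey1 and Hey2 were called higher and none lower (median 1.20), each with 9 to 17 UMIs at P7. Glial marker RNA moved with these genes in the P7 neurons, as given earlier, and its part was not tested. Of 11 cell cycle genes, 9 were at 0 in P7 neurons, and Tyms and Pclaf were called lower from 20.3 ± 0.27 and 6.38 ± 2.17 CPM. The median over this list, -0.0067 with zeros entered at their bound, shows that the P7 depth could not resolve it.

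**Figure D2:**
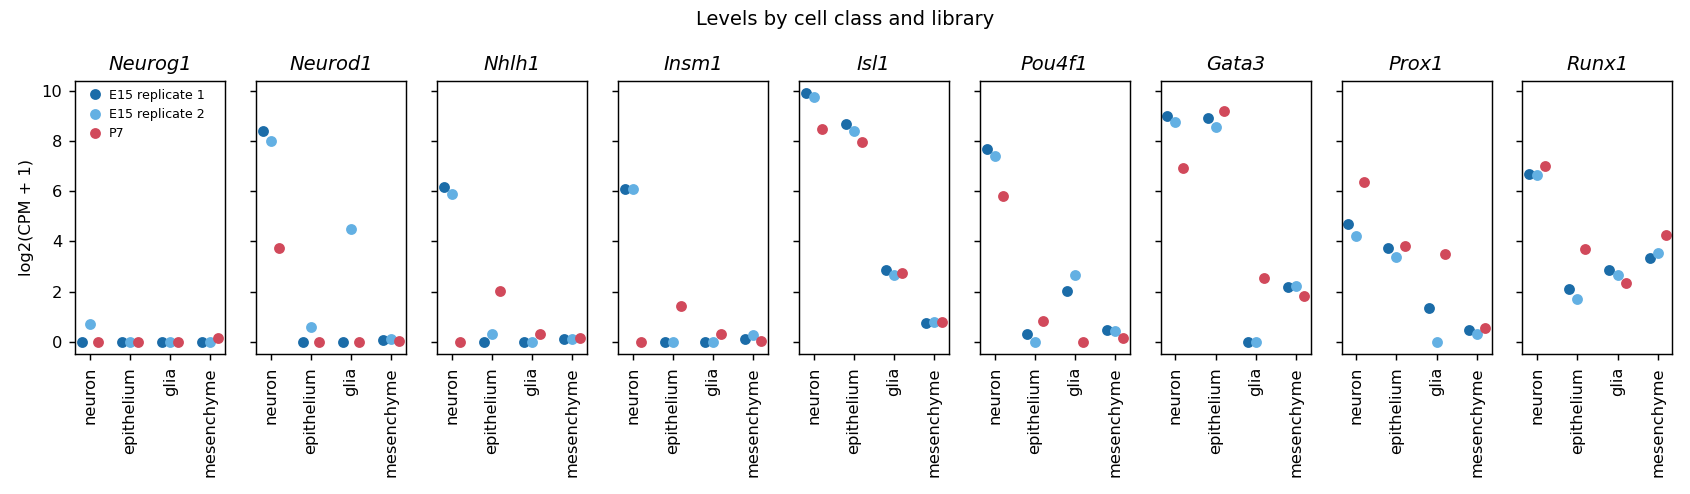
Levels of the 9 genes as log2(CPM + 1) in neurons, epithelium, glia and mesenchyme, with 1 point per library. Neurod1, Nhlh1, Insm1 and Pou4f1 stand near 0 outside neurons at E15, apart from single glial cells, whereas Gata3 and Isl1 are high in epithelium at both ages.

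At E15, Neurod1, Nhlh1, Insm1, Pou4f1 and Runx1 were far higher in neurons than in epithelium of the same libraries, whereas Gata3, Isl1 and Prox1 stood at levels of the same order in both. Against epithelium, 6 of the 8 tested members were called higher in neurons, where 34.7% of all genes were called (14.4% higher in neurons and 20.4% lower). Neurod1 had 877 UMIs in E15 neurons and 2 in E15 epithelium, Pou4f1 had 555 and 1, and Nhlh1 had 191 and 1. Insm1 had 199 UMIs in neurons and 0 in epithelium, at least 182-fold higher in neurons. Runx1, with 102 and 100.3 CPM in neurons, stood at 3.30 and 2.31 CPM in epithelium, a log2 difference of 5.14 ± 0.24 (SE, edgeR adjusted p = 1.2e-95).

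Gata3 stood at 479.8 and 370.1 CPM in E15 epithelium, and the log2 difference of 0.12 ± 0.07 (SE) from neurons did not pass the test (edgeR adjusted p = 0.14). Isl1, which also marks the prosensory part of the cochlear epithelium, stood at 407 and 339 CPM there, lower than in neurons by a log2 difference of 1.26 ± 0.06 (SE, edgeR adjusted p = 6.2e-89). Prox1, at 12.5 and 9.48 CPM in epithelium, was under the fold of 2, with a log2 difference of 0.94 ± 0.29 (SE, edgeR adjusted p = 0.0030). Against glia (38 and 13 E15 cells) and mesenchyme (1298 and 1521 cells), all 8 tested members were called higher in neurons, where 28.5% and 36.6% of all genes were called. E15 glia held 4 UMIs of Neurod1, all in 1 cell of E15 replicate 2, and 0 of Gata3, Nhlh1 and Insm1. Outside all gates Neurod1 had 46 UMIs in 9 cells of E15 replicate 1 and 6 UMIs in 5 cells of E15 replicate 2. Runx1 was the member with the smallest fitted difference from mesenchyme, at 9.26 and 10.8 CPM there (log2 difference 3.24 ± 0.16, SE).

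Outside all gates, Runx1 had 247, 219 and 608 UMIs in E15 replicate 1, E15 replicate 2 and P7. Of the cells there with at least 3 Runx1 UMIs, 20 of 26, 19 of 22 and 33 of 57 also held Fcer1g, a gene of macrophages and other white blood cells, in which Runx1 is well known. The macrophage markers C1qa, C1qb, Csf1r and Fcer1g summed to 2.47 to 6.23 CPM in the neurons of the 3 libraries. Runx1 stood at 100.3 to 126 CPM in the same cells. The part of white blood cell RNA in these Runx1 levels was not tested.

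The course with age differed between neurons and epithelium. In epithelium, 3 of the 8 tested members, Nhlh1, Insm1 and Runx1, were called higher at P7 and none lower, where 35.4% of all genes were called (20.6% higher and 14.8% lower). Gata3 fell in neurons, while epithelium held 479.8 and 370.1 CPM at E15 and 577 CPM at P7, a log2 change of 0.55 ± 0.07 that was under the fold of 2. The difference between both age effects was -2.42 ± 0.16 on the log2 scale (SE, edgeR adjusted p = 5.8e-50). That difference was called for 6 of the 8 tested members, where 16.7% of all genes were called (8% higher and 8.69% lower), with 1 member higher and 5 lower. Prox1 rose in neurons and not detectably in epithelium (log2 change 0.38 ± 0.25, SE), with a difference of 1.65 ± 0.41 (SE, edgeR adjusted p = 0.00043). Runx1 went the other way: epithelium rose from 3.30 and 2.31 CPM to 11.9 CPM (log2 change 2.16 ± 0.32, SE, edgeR adjusted p = 1.2e-10), with a difference of -1.76 ± 0.40 (SE, edgeR adjusted p = 0.00010). Isl1 in epithelium had a log2 change of -0.50 ± 0.07 (SE), and the difference of -0.78 ± 0.13 (SE) stayed under the fold of 2.

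The P7 epithelium held Nhlh1 and Insm1, the factors that were at 0 UMIs in P7 neurons. Nhlh1 had 31 UMIs there and 1 in the E15 epithelium, and Insm1 had 17 and 0. All 31 Nhlh1 UMIs and 15 of the 17 Insm1 UMIs lay in the 23 epithelial cells with at least 2 UMIs of Pou4f3, the hair cell factor, in 16 and 8 of these cells. These 23 cells all held Gfi1, Otof and Myo7a, 3 further hair cell genes. None of the 23 held Neurod1, Neurog1 or Runx1. Gata3 was in all 23 (421 UMIs) and Isl1 in 22 (77 UMIs), at 92.0 CPM against 260.1 CPM in the other 600 epithelial cells. Their median share of mitochondrial UMIs was 12.8% against 5.10% in the other epithelial cells, and 22 of the 23 exceeded 10%. With the limit set there, the log2 change of Nhlh1 in epithelium turned from 4.57 to -3.21, with all but 1 of these 23 cells removed. Insm1 in epithelium lost its call at this limit as well.

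Prox1 in P7 epithelium came from 30 cells. Of these, 12 also held Fgfr3, a receptor gene of pillar and Deiters' supporting cells, in which Prox1 is known, and 2 had at least 2 UMIs of Pou4f3.

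**Figure D3:**
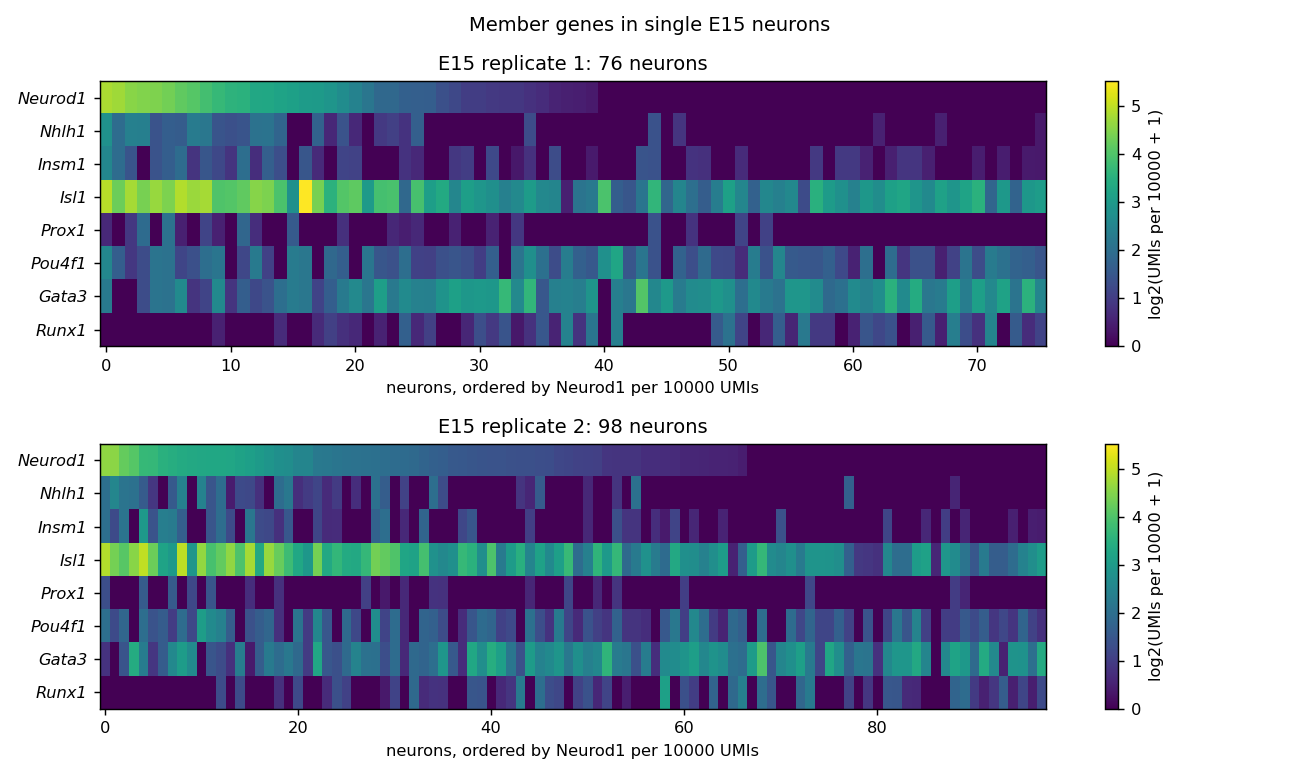
Levels of 8 member genes in each E15 neuron, 1 column per cell, as log2(UMIs per 10000 + 1) in colour, with the cells ordered by Neurod1 within each library. Nhlh1, Insm1 and the highest Isl1 levels lie on the left with Neurod1, and Runx1 lies mostly to the right.

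Neurod1 was uneven among the E15 neurons, and the other members followed it in opposite ways. In E15 replicate 1 single neurons held 0 to 50 UMIs (median 1) and in E15 replicate 2 they held 0 to 33 (median 2). Cells with at least 5 Neurod1 UMIs (22 and 29 cells) were set beside cells with none (36 and 31 cells), as a description with no test, since the cells of a library are not replicates. Median depth was 18020 and 13840 UMIs in the former and 22356 and 16962 in the latter, so the cells rich in Neurod1 were not the deeper ones.

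Nhlh1 stood at 219.6 and 138 CPM in the neurons rich in Neurod1 and at 7.04 and 6.31 CPM in those without it. Insm1 stood at 147.2 and 147.4 CPM against 31.0 and 21.0 CPM. Isl1 stood at 1803 and 1579 CPM against 588 and 418 CPM. All 3 were thus higher beside Neurod1 in both libraries. Prox1, the member that rose with age, was also higher beside Neurod1 at E15, with 55.5 and 31.8 CPM against 8.44 and 8.41 CPM.

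Gata3 and Runx1 went the other way. Gata3 stood at 321 and 225 CPM in the neurons rich in Neurod1 and at 574 and 526 CPM in those without it. Runx1 stood at 41.0 and 43.1 CPM against 128 and 98.8 CPM. Pou4f1 had no common direction, with 191 and 188 CPM against 204 and 143 CPM. Cells with 1 to 4 Neurod1 UMIs were closer to cells without any in Gata3 (585 and 497 CPM), Runx1 (125 and 143 CPM) and Isl1 (625 and 679 CPM).

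**Figure D4:**
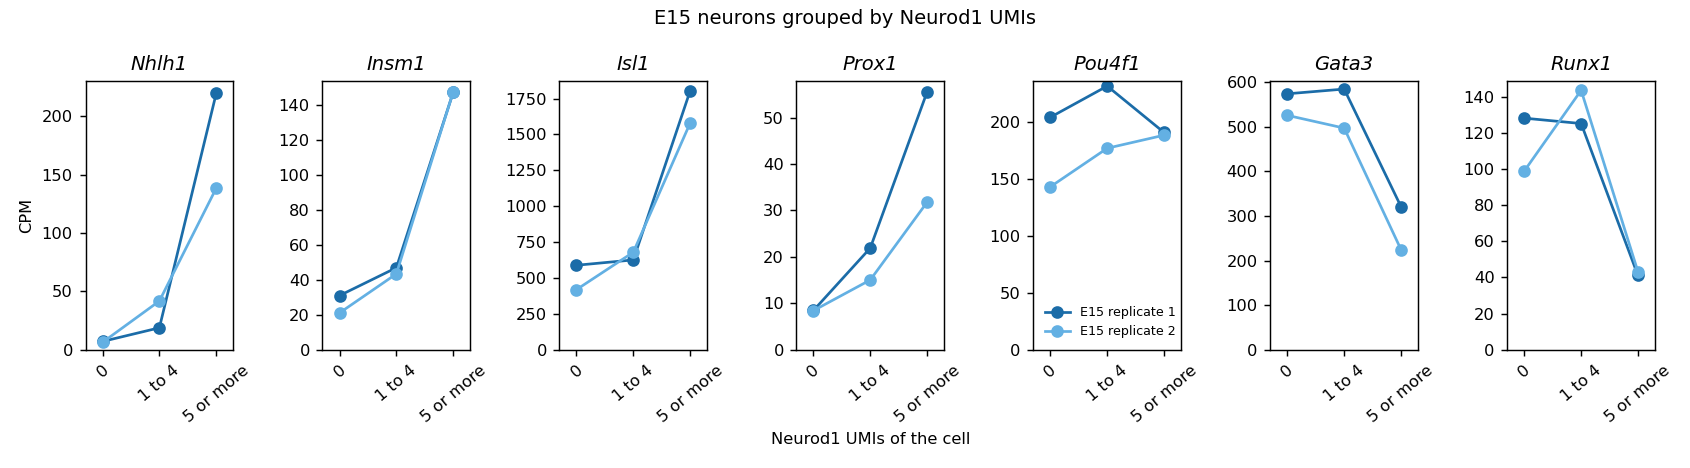
Levels (CPM, linear axes from 0) of 7 members in E15 neurons with 0, 1 to 4, and 5 or more Neurod1 UMIs, 1 line per library. Nhlh1, Insm1, Isl1 and Prox1 are highest in the group with most Neurod1 in both libraries, Gata3 and Runx1 are lowest there, and Pou4f1 differs little.

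The fixed lists were summed over the same groups of cells. The 20 maturity genes summed to 7300 and 8642 CPM in them and to 12463 and 12992 CPM in neurons without Neurod1. Of the 16 of these genes with at least 10 UMIs, 7 were higher and 9 lower in the neurons rich in Neurod1 in E15 replicate 1, and 6 higher and 10 lower in E15 replicate 2, so the sums rest on a few abundant genes. The 13 ganglion subtype genes summed to 249 and 417 CPM against 777 and 879 CPM. The 29 further neurogenic factors summed to 7047 and 6310 CPM against 5167 and 4729 CPM. The 9 neuronal markers outside the gate were alike, with 14572 and 15220 CPM against 13655 and 14174 CPM. The 11 cell cycle genes summed to 57.9 and 52.2 CPM against 57.7 and 71.5 CPM.

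Correlations across cells gave the same order, as a description over 76 and 98 cells that share their library and depth. On log1p of UMIs per 10000, Neurod1 had a Pearson r of 0.83 and 0.68 with Nhlh1 in E15 replicates 1 and 2, of 0.77 and 0.74 with Isl1, and of 0.59 and 0.57 with Insm1. With Gata3 it had -0.55 and -0.38, and with Runx1 -0.45 and -0.33. Gata3 and Runx1 had 0.29 and 0.24 with each other. Pou4f1 stayed between -0.12 and 0.27 with all other members.

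Over the 9038 genes compared, those with a pattern among the most like Neurod1 were Ppp1r17, Isl1, Ppp1r14a and Gap43, with r of 0.73 to 0.90 in both libraries. Ppp1r14a and Neurod1 were both among the 5 genes most like Insm1, Isl1 and Nhlh1. Among those most like Gata3 were Maf, Pvalb, Tshz2 and F2r (r of 0.46 to 0.52). Maf was called higher at P7 in neurons, and Gata3 was called lower. Runx1 was most like Susd4, Osbpl1a, Klhl5, Id4 and Chd3 (r of 0.38 to 0.55), and Ccser2, Shh, Nedd1 and Sema3c were among the most like Prox1. For Pou4f1 the highest values were 0.41 and 0.30, with Trim2.

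Co-detection at 5000 UMIs per cell gave counts beside those from the product of the single shares. Neurod1 and Nhlh1 were seen together in 15 of 73 and 20 of 93 E15 neurons, where the product gives 6.66 and 11.9 cells. Neurod1 and Runx1 were seen together in 2 and 9 cells, where it gives 7.40 and 14.5. Prox1 and Runx1 shared 0 and 1 cells, against 2.74 and 2.71, too few to read. Isl1 and Gata3, both in most neurons, shared 58 and 70 cells, against 58.7 and 69.6. Isl1 and Gata3, of opposite sides, were thus combined in many of the same cells, whereas Neurod1 and Runx1 met in fewer cells than the product gives. None of these pairs was mutually exclusive in both libraries. Without thinning, an E15 neuron held a median of 5 of the 9 factors (range 2 to 8 and 1 to 8), and a P7 neuron held 3.5 (range 1 to 6).

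**Figure D5:**
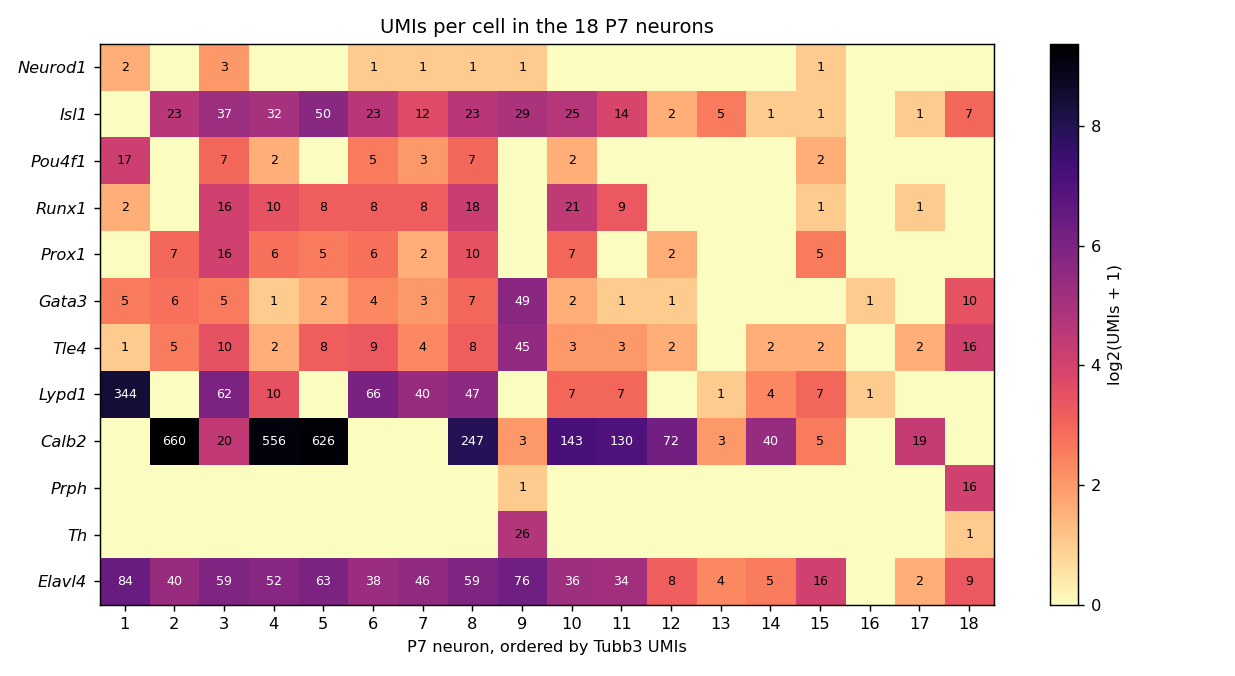
UMIs of 6 member genes and of 6 further genes in each of the 18 P7 neurons, numbered by Tubb3 UMIs, with colour as log2(UMIs + 1) and blank cells at 0. Gata3, Tle4, Prph and Th stand together in cells 9 and 18, and Pou4f1 stands with Lypd1 and Runx1.

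The 18 P7 neurons split the members between them. As background, the 2 main kinds of spiral ganglion neuron are type I neurons, which contact inner hair cells and include groups marked by Calb2 or Lypd1, and type II neurons, which contact outer hair cells and are marked by Prph and Th. Th was seen in 2 of the 18 cells, cell 9 with 26 UMIs and cell 18 with 1, and these were also the cells with Prph (1 and 16 UMIs). They held 49 and 10 UMIs of Gata3, so that 59 of all 97 Gata3 UMIs lay in 2 cells, whereas no other cell held more than 7. Neither held any Runx1, Prox1 or Pou4f1, while Isl1 was present in both (29 and 7 UMIs). Tle4, a Groucho-family corepressor named after its values were seen, had 45 and 16 UMIs in them and at most 10 in any other cell.

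Without these cells Gata3 stood at 52.2 CPM in the remaining 16. These 16 held all of the Prox1, Pou4f1 and Runx1 UMIs (66, 45 and 102). Pou4f1 was in 8 cells, and Runx1 and Lypd1 were in all 8 of them. Of the 596 Lypd1 UMIs, 583 lay in these 8 cells. The highest values of Pou4f1 and Lypd1 (17 and 344 UMIs) were in the same cell, which held no Isl1, no Calb2 and no Prox1. Its 4 UMIs of Tlx3, a homeobox gene listed here as a marker of vestibular neurons, were the only ones in P7 neurons. The sums of the whole vestibular list are given earlier.

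Prox1 was in 10 cells, and all 10 held Slc17a7, the glutamate transporter, with 175 of its 182 UMIs. Of the 2524 Calb2 UMIs, 2329 lay in the cells with Prox1 and 1746 in the cells with Runx1. Of the 3 cells with over 500 Calb2 UMIs, all held Isl1 (23, 32 and 50 UMIs) and Prox1 (7, 6 and 5 UMIs), and Runx1 was at 0, 10 and 8 UMIs. Neurod1 was spread over 7 cells with 1 to 3 UMIs each. Cells with many members were also among the deeper ones, so absence in cells 12 to 18, which held 6894 to 30440 UMIs, is limited by depth. With 18 cells from 1 library these combinations are a description.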

How the data were processed

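UMI counts per gene and barcode were deposited by the authors as filtered matrices for 2 E15 libraries and 1 P7 library of 10x Chromium 3' chemistry (version 3). Cell Ranger 6.1.2 and GRCm38/mm10 are named in the submitters' processing notes, and per the file headers the software versions were 6.1.2 (E15) and 3.1.0 (P7). The files list 32285, 32285 and 28692 genes, and 27734 shared Ensembl IDs were kept. Cells had at least 500 genes and at most 20% mitochondrial UMIs. Scrublet (scanpy 1.11.5) marked only 5, 6 and 3 cells by its automatic threshold, so the highest scores, up to 0.008 per 1000 cells, were removed instead (64, 100 and 422 cells). This left 2774, 3437 and 6840 cells, from libraries of 46530036, 44304364 and 93829443 UMIs.

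Neurons had at least 5 Tubb3 and 2 Stmn2 UMIs. Of the rest, epithelium had at least 2 UMIs of Epcam; glia at least 1 of Sox10 and 5 of a further glial gene, without Epcam or Dct; mesenchyme at least 2 of Pou3f4 and 1 of Col1a2, without Epcam or Sox10 and with fewer than 5 of that glial gene. Raw counts were summed per library and class into 12 sums and fitted with edgeR 4.0.16 (TMM, quasi-likelihood, R 4.3.3) with the E15 library as a block, which left 3 residual degrees of freedom. The 1 P7 library was assumed to vary like the E15 pair. The block was kept because the classes of a library share that library. In simulated counts for the age contrast in neurons, 30% of genes changed by a fold of 2 were recovered (13585 genes tested). Of those changed by a fold of 4, 77.5% were recovered (13548 genes tested). A call needs a fitted fold of at least 2, so a true fold of 2 lies on that limit and many such genes must miss it. The simulated P7 sums were given the same spread as the E15 sums. CPM are UMIs per 1000000 UMIs of a class. Shares of cells were taken after thinning each cell to 5000 UMIs (3, 5 and 0 neurons were shallower). Intervals are exact binomial or Poisson at 95% and cover counting error only, as do limits from a floor of 3 counts.

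The 9 genes and the gene and marker lists were chosen with earlier results of these data known. From each list at most 8 called genes with the largest fitted change were to be named, and for each member the 5 genes with the highest lower r of both E15 libraries, over genes seen in at least 10% of neurons. Alternatives were DESeq2 1.42.0, other scaling and filters, other gates, doublets kept, a stricter mitochondrial limit, a test against a fold of 2, no block and leaving out each E15 replicate. A looser glia gate and neurons with at least 1 Elavl4 UMI were added after seeing the data. Some genes that these rules would name are not reported here.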

Additional observations from a re-analysis of the deposited data

Results flagged for a closer look

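The age effect differed between neurons and epithelium, by a test of the difference itself (edgeR's quasi-likelihood test), for 6 of the factors. The neuronal change minus the epithelial one was -2.42 for Gata3, -1.76 for Runx1, -4.31 for Pou4f1 and 1.65 for Prox1 on the log2 scale. Pou4f1 rested on 1 UMI in E15 epithelium and 8 at P7. It was -16.65 for Nhlh1 and -19.08 for Insm1, which had 0 UMIs in P7 neurons and at most 1 in E15 epithelium, so these fitted values are no bounds. Under a test against a fold of 2, the differences of Prox1 and Runx1 lost their calls.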

How the results depend on the processing

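P7 was 1 library of 18 neurons, so levels under 3.70 CPM could not be resolved there, and leaving out an E15 replicate gave values with no residual degrees of freedom and no test. Tested against a fold of 2, genes called numbered 2051 (1303 higher, 748 lower) in place of 3765 (2073 and 1692) for age in neurons, 1215 in place of 2445 for the difference of age effects between neurons and epithelium, and 2720 in place of 4172 for E15 neurons against glia; this test is stricter by construction. The other alternatives kept the 6 counts of genes within 1.5 times. For age in neurons, RLE factors gave 2470 higher and 1318 lower and DESeq2 gave 2229 and 1006, with the share called higher at 65.2% and 68.9% against 55.1%. Both moved the median of all genes by 0.13 in epithelium, and DESeq2 moved that of the difference of age effects by 0.11. Of the single-gene shares recomputed with other gates, other thinning or doublets kept, 120 stayed within their interval and 42 moved beyond it. Each thinned setting used a new random draw, so these moves hold the draw as well as the setting. The 7 factors called in neurons kept their direction in each alternative. Calls were lost for Neurod1 with DESeq2 (-4.86, adjusted p = 0.15) and for Isl1 in neurons without Sox10 or Epcam (-0.90); for Neurod1 the cause was not tested.

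Without E15 replicate 1 or 2, the log2 change in neurons was -4.18 to -4.56 for Neurod1, -1.09 to -1.21 for Isl1, -1.41 to -1.68 for Pou4f1, -1.63 to -1.86 for Gata3 and 1.92 to 2.39 for Prox1. At most 10% mitochondrial UMIs reversed Nhlh1 in epithelium to -3.21 from 4.57, with most cells that hold it removed. Pou4f1 in epithelium, not called in the reported fit, was called with RLE factors (2.77), the stricter neuron gate (2.73) and the looser glia gate (2.65).

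No paired analysis was possible, since the labels tie no E15 library to the P7 library. The replicate numbers only count libraries within an age and define no pairs. Without the replicate block for the E15 library, 3738 genes were called for age in neurons, and the 8 tested factors kept their calls there. The p-values of the called factors were larger without the block, so their size depends on it.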
